A study of Mus musculus with 20 samples.

Results

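Monomethylation of histone H3 at lysine 4 (H3K4me1) was compared between whole mouse liver and mouse embryonic fibroblasts (MEFs), and the stretches that carried the mark in both, or in 1 of them, were then followed into embryonic stem (ES) cells. The members were 1 kb bins of chromosomes 1 to 19, sorted by their H3K4me1 reads alone. Of 2078699 bins tested, 67091 were liver-specific, 65265 were MEF-specific and 43995 were shared. The comparison used 4 of the 20 libraries of the series, an H3K4me1 and a total H3 library from liver and the same pair from MEFs, each a single library. The other 16 gave the state of the same bins in ES cells, in induced pluripotent stem (iPS) cells, in neural progenitors (NPCs) and, for other marks, in liver.

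Per the labels, the liver sample was perfused whole liver, dissected, dissociated to cells, filtered and spun at low speed, so it holds all liver cell types that passed those steps. The MEFs were cultured fibroblasts. No age, sex, strain or treatment of the liver or the MEF sample was used here, and the same antibody was named for H3K4me1 in both, and the same one for H3. The 3 ES H3K4me1 libraries came from 129JAE-C57/B6 cells, from 129JAE-C57/B6 cells with a doxycycline-inducible transgene of reprogramming factors, and from inbred C57/B6 cells. Their spread therefore includes line differences. The ES libraries of H3K27ac, H3, H3K4me3, p300 and whole cell extract were also of 129JAE-C57/B6 cells (129JAE-C56/B6 in the label of the extract), and the NPCs were derived from 129JAE-C57/B6 cells. ES and iPS cells had been grown on irradiated MEF feeder layers and were kept off them for 1 or 2 passages before fixation, and the iPS cells were derived from MEFs. Any part of leftover feeder cells in the ES and iPS values was not tested. The labelled tissues could not be checked against marker genes, because the positions fit another genome build than the annotation at hand.

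H3K4me1 is laid down mainly by the methyltransferases MLL3 and MLL4 and marks enhancers, the distal elements that drive transcription in particular cell types. It also flanks active promoters, whose centres carry trimethylation (H3K4me3) in its place. An enhancer with H3K4me1 that also carries acetylated lysine 27 of H3 (H3K27ac) is generally active, and one without it is generally described as primed or poised. Enhancer marks differ between cell types more than promoter marks do. The liver is built mostly of hepatocytes, of endodermal origin, and fibroblasts are mesenchymal cells of connective tissue.

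The liver H3K4me1 library held 7.58 M (mega) reads and the MEF library 18.2 M. After repeated positions on a strand were counted once, 7.32 M distinct reads of liver and 14.3 M of MEFs remained on chromosomes 1 to 19, with 2.23% of reads repeated in liver and 20.7% in MEFs. The MEF library was thinned to the liver depth for the comparison. The H3 libraries held 4.28 M distinct reads in liver and 6.12 M in MEFs, and the ES H3K4me1 libraries held 9.95, 9.39 and 6.20 M. The typical distance between reads of opposite strands was 111 bp in the liver library and 162 bp in the MEF library.

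A bin was called where its reads exceeded the expectation from the genome mean and from H3 of the same cells, and were at least 3-fold over it. By this rule 139805 bins were called in liver and 129043 in MEFs, which is 6.73% and 6.21% of the bins tested. Called bins held 63.1% of the reads in liver and 58.6% in MEFs, so the contrast between marked and unmarked bins was of like size in the 2 libraries. Of the liver-called bins, 31.5% were also called in MEFs (exact binomial 95% interval 31.2 to 31.7%), where 6.21% of all bins were called. Of the MEF-called bins, 34.1% were also called in liver (33.8 to 34.4%), where 6.73% of all bins were called. About 1 in 3 marked bins of either sample was thus marked in both. With the MEF library at full depth the shares were 32.0% and 34.1%. These intervals, like all others given here, cover counting error only.

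A bin was liver-specific where it was called in liver, not in MEFs, and held at least 4 times the RPM (distinct reads per 1 M distinct reads) of MEFs, with counts under 3 reads set to 3. MEF-specific bins followed the reverse rule, and shared bins were called in both. Liver-specific bins made up 3.23% of the bins tested, MEF-specific bins 3.14% and shared bins 2.12%. These are the shares set by the rule and serve as the background for what follows. A further 28719 bins were called in liver only with a difference under 4-fold, 19783 were called in MEFs only with such a difference, and 1853846 bins, 89.2% of those tested, were called in neither.

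The reads that sorted the bins were far apart in the specific classes. Liver-specific bins held a median of 28 liver reads and 2 thinned MEF reads, or 3.83 and 0.273 RPM. MEF-specific bins held a median of 2 liver reads and 27 MEF reads, or 0.273 and 3.69 RPM. Shared bins held 31 and 30 reads, or 4.24 RPM in liver and 4.10 RPM in MEFs, so a shared bin was typically marked as strongly as a specific one. No MEF read was found in 26.0% of the liver-specific bins at the thinned depth, and no liver read in 20.5% of the MEF-specific bins. At full MEF depth 9807 of the 67091 liver-specific bins still had none, against 17474 in the thinned library. The full MEF library called 0.689% of the liver-specific bins.

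The difference between the samples was spread over the whole range of sizes. Of the 224853 bins called in either library, 41.1% were at least 2-fold higher in liver and 38.7% at least 2-fold higher in MEFs. At 4-fold the shares were 30.2% and 29.6%, at 8-fold 13.5% and 12.4%, and at 16-fold 3.46% and 2.55%. Bins called in liver only were compared on both sides of the limit, with counts under 3 reads set to 3. Just inside it, at 4 to 4.5-fold, the medians were 13 liver and 3 MEF reads. Just outside it, at 3.5 to 4-fold, they were 25 and 7. The MEF side of the limit looked alike, with 3 liver and 13 MEF reads just inside and 7 and 26 just outside. A median of 3 is here the floor itself, so the reads held can be fewer. Bins near the limit thus included many of low count, where a few reads decide the class.

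**Figure D1:**
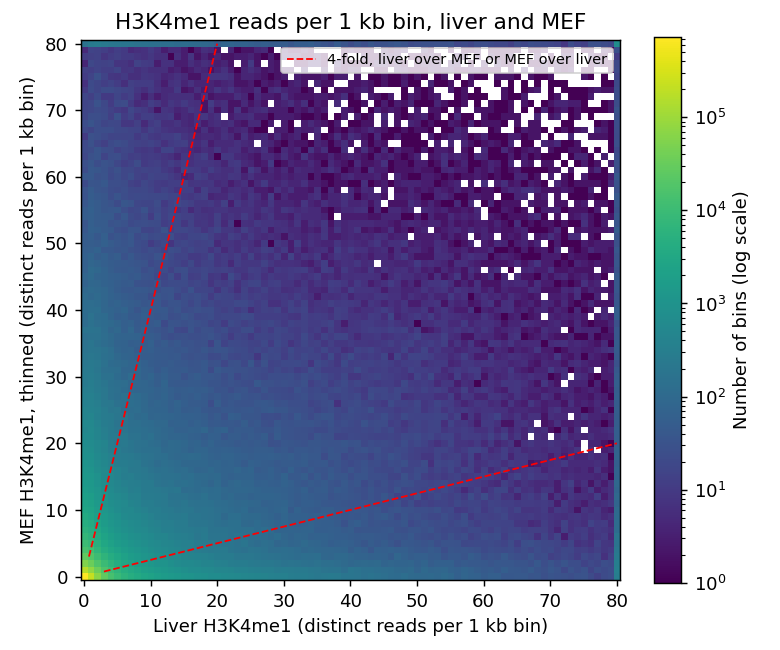
Distinct H3K4me1 reads per 1 kb bin in liver (horizontal axis) and in MEFs thinned to the liver depth (vertical axis), with the number of bins as colour on a log scale. The dashed lines mark a 4-fold difference either way, white cells hold no bin, and the last column and row hold bins of 80 or more reads. Most bins lie near the origin, at counts too low to be called in either sample. Away from it, bins lie along both axes, where 1 sample holds many reads and the other few. The thinner spread between the lines holds shared bins and bins called in 1 sample only with a difference under 4-fold.

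With 1 library per sample no test between liver and MEFs was possible, so the spread between libraries was read from the 3 ES H3K4me1 libraries. All libraries were thinned to 6.20 M reads and each pair was sorted by the same rule. The ES libraries were all called against the same ES H3 library, while liver and MEFs were each called against their own H3. The ES pairs therefore hold no spread from the background. Between liver and MEFs 57.4% of the bins called in either were specific to 1 of the 2 and 19.4% were shared, with a median difference of 4.5-fold either way. Between pairs of ES libraries 2.19, 5.07 and 4.21% of bins were specific and 57.2, 51.8 and 56.1% were shared, with median differences of 1.40, 1.55 and 1.44-fold. The specific share between liver and MEFs therefore lay above that of all 3 ES pairs, and the shared share below it. It was of the size seen between liver and each ES library (56.3 to 59.0% specific) and between MEFs and each ES library (54.0 to 55.3%). How far 2 separate liver samples or 2 MEF cultures would differ was not measured.

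**Figure D2:**
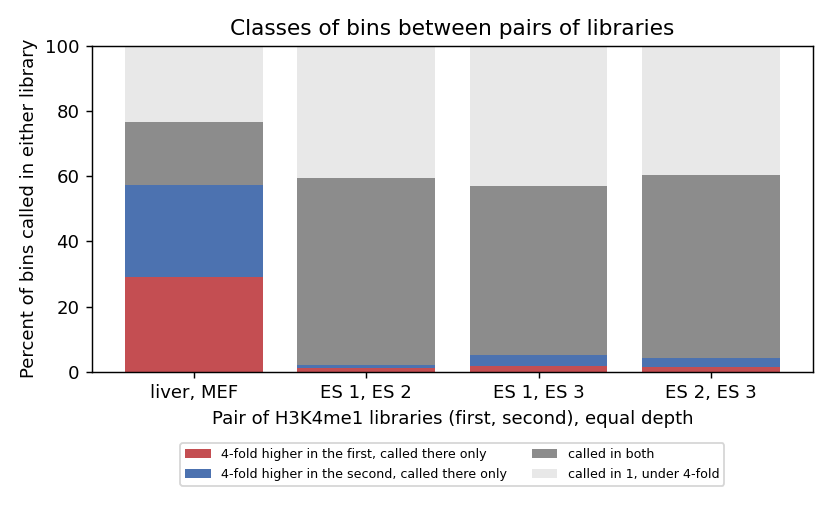
Share of the bins called in either library of a pair that fell into each class, for liver and MEFs and for the 3 pairs of ES libraries, all at 6.20 M reads. The specific classes (red and blue) fill 57.4% of the first bar and 2.19 to 5.07% of the ES bars.

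Total H3, the background, differed little by comparison. Liver H3 averaged 0.552 RPM in liver-specific bins, 0.659 in MEF-specific bins and 0.624 in shared bins, against 0.481 over all bins. MEF H3 averaged 0.619, 0.745 and 0.840 RPM in the same classes, against 0.481 over all bins. Every class thus lay above the genome average in both H3 libraries, and MEF H3 was above liver H3 in each class, by most in the shared bins. The part of this in the H3K4me1 classes was not tested beyond the alternatives given in the closing section.

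The ES state of the 3 classes differed in order. H3K4me1 was called in ES libraries 1, 2 and 3 at 18.0, 16.8 and 18.0% of liver-specific bins, at 19.4, 21.3 and 25% of MEF-specific bins, and at 48.2, 53.6 and 53.7% of shared bins. The means were 17.6 ± 0.713%, 21.9 ± 2.82% and 51.8 ± 3.17% (SD, n = 3 libraries), beside 7.16 ± 0.519% of all bins and 4.51 ± 0.439% of the bins called in neither liver nor MEFs. Shared bins were above both specific classes in every ES library. MEF-specific bins were above liver-specific bins in 3 of 3 libraries. Bins called in 1 sample only with a difference under 4-fold did not keep this last order. Those of liver stood at 34.7, 35.3 and 32.8% in ES libraries 1, 2 and 3, and those of MEFs at 30.3, 33 and 34.6%. The liver share was thus higher in libraries 1 and 2 and lower in library 3. No test was made, since an exact paired test over 3 libraries cannot pass a usual threshold.

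The mean level of the mark followed the same order in these 3 classes. ES H3K4me1 averaged 0.989 ± 0.0302 RPM in liver-specific bins, 1.19 ± 0.123 RPM in MEF-specific bins and 2.29 ± 0.191 RPM in shared bins (SD, n = 3), against 0.476 RPM over all bins. The ranges of these means over the 3 libraries did not overlap between the classes (0.957 to 1.02, 1.07 to 1.32 and 2.08 to 2.46 RPM). Medians in ES libraries 1, 2 and 3 were 0.503, 0.532 and 0.484 RPM in liver-specific bins. In MEF-specific bins they were 0.603, 0.532 and 0.645 RPM, so the 2 specific classes had equal medians in library 2. Bins called in 1 sample only and under 4-fold averaged 1.57 ± 0.0234 RPM for liver and 1.55 ± 0.106 RPM for MEFs. Of the liver-specific bins 75.4% were called in 0 of the 3 ES libraries and 11.2% in all 3. For MEF-specific bins the shares were 70.7% and 15.1%, and for shared bins 34.7% and 37.9%, beside 89.9% and 4.5% of all bins.

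Each bin was then given a state in ES cells from all their libraries together, taking the first that applied. H3K4me3, the mark of promoters, was called at 3.79% of liver-specific bins, 1.88% of MEF-specific bins and 17.7% of shared bins, beside 1.21% of all bins. H3K4me1 with H3K27ac and without H3K4me3, the pattern of active enhancers, held 5.40%, 8.82% and 20.8% of the classes, beside 2.33% of all bins. H3K4me1 without H3K27ac, the pattern of primed or poised enhancers, held 7.99%, 8.34% and 15%, beside 3.11% of all bins. Specific bins of liver and MEFs thus differed in ES cells more in the acetylated state than in the unacetylated one.

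In most specific bins nothing was called in ES cells. Neither H3K4me1, H3K27ac, H3K4me3 nor p300, a histone acetyltransferase bound at enhancers, was called in any ES library at 71.8% of liver-specific bins (95% interval 71.5 to 72.2%), at 68.3% of MEF-specific bins (68.0 to 68.7%) and at 28.2% of shared bins (27.8 to 28.7%), beside 88.5% of all bins. In numbers these were 48180 liver-specific, 44607 MEF-specific and 12420 shared bins. H3K27ac without H3K4me1 held 0.811%, 0.932% and 1.53% of the classes, beside 0.378% of all bins. The remaining 10.2%, 11.7% and 16.7%, beside 4.43% of all bins, had other combinations of calls.

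**Figure D3:**
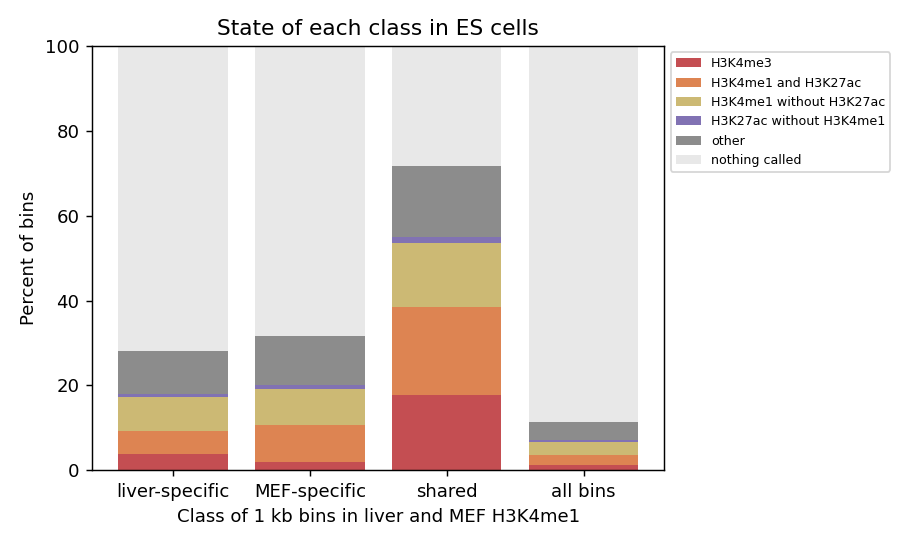
State in ES cells of liver-specific, MEF-specific and shared 1 kb bins and of all bins tested, as percent of the bins of each class. The pale part, with nothing called in ES cells, takes 71.8%, 68.3% and 28.2% of the classes and 88.5% of all bins.

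Read from the ES side, the same counts give the share of each ES state that fell into each class. Over all bins tested, 2.12% were shared, 3.23% liver-specific and 3.14% MEF-specific. The shares compare separate samples and do not describe a course over time. Of the 25135 ES H3K4me3 bins, 31.1% were shared, 10.1% liver-specific and 4.87% MEF-specific. Of the 48406 ES bins with H3K4me1 and H3K27ac, 18.9% were shared, 7.48% liver-specific and 11.9% MEF-specific. Of the 64613 ES bins with H3K4me1 and no H3K27ac, 10.2% were shared, and the specific classes took nearly equal shares, 8.30% for liver and 8.43% for MEFs. Bins with nothing called in ES cells, 1840526 in number, were liver-specific in 2.62% of cases, MEF-specific in 2.42% and shared in 0.675%. Each of these shares was below that over all bins.

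p300 and H3K27ac of ES cells ranked the classes as H3K4me1 did. The 2 p300 libraries were called at 4.74 and 3.88% of liver-specific bins, at 8.09 and 6.38% of MEF-specific bins and at 24.6 and 18.5% of shared bins, against 2.53 and 2.09% of all bins. The 2 H3K27ac libraries were called at 11.9 and 10.9%, at 13.9 and 14%, and at 42.2 and 44.0%, against 4.70 and 4.52% of all bins. In both marks each library put liver-specific bins lowest and shared bins highest.

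iPS cells, which had been made from MEFs, gave a like order at a lower depth of 2.29 M distinct reads. H3K4me1 was called there at 9.18% of liver-specific bins (95% interval 8.96 to 9.40%), 13.9% of MEF-specific bins (13.7 to 14.2%) and 32.2% of shared bins (31.8 to 32.6%), against 3.90% of all bins. Where nothing was called in ES cells, iPS cells were called at 0.459% of liver-specific, 0.439% of MEF-specific and 1.13% of shared bins, beside 0.150% of all bins with nothing called in ES cells (0.144 to 0.156%). The values of the 2 specific classes had overlapping intervals (0.400 to 0.523% and 0.380 to 0.505%) and were above that background. In NPCs H3K27ac was called at 5.66%, 8.15% and 30.7% of the classes, against 2.29% of all bins, and the transcription factor Rfx1 at 1.37%, 1.97% and 10.7%, against 0.751%. The Rfx1 library held only 0.694 M distinct reads, with 72.5% of reads repeated.

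In liver itself H3K27ac and H3K4me3 were called less often at MEF-specific bins than at liver-specific and shared bins. The rule leaves MEF-specific bins without an H3K4me1 call in liver. H3K27ac of liver was called at 53.9% of liver-specific bins (53.5 to 54.3%), at 53.8% of shared bins (53.4 to 54.3%) and at 2.44% of MEF-specific bins (2.32 to 2.56%), against 4.18% of all bins. Its mean level was 4.19 RPM in liver-specific, 5.04 in shared and 0.533 in MEF-specific bins, against 0.477 RPM over all bins. Bins called in neither sample, which like the MEF-specific ones carried no H3K4me1 call in liver, were acetylated at 0.624% and 0.173 RPM. In the share called, MEF-specific bins thus lay between these and all bins, while their mean level was above both. The near-equal shares of liver-specific and shared bins depended on the settings, with 72% and 53.8% where specific bins were set at 8-fold and 54.4% and 46.4% in bins of 500 bp. Liver H3K4me3 was called at 15.4% of liver-specific, 36.8% of shared and 1.99% of MEF-specific bins, against 2.30% of all bins. No H3K27ac or H3K4me3 library of MEFs was analysed here, so the matching figures for MEFs cannot be given.

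Acetylation in liver was more frequent where the difference was larger. Liver-specific bins at 4 to 6-fold, 6 to 8-fold, 8 to 12-fold and at least 12-fold over MEFs were called for liver H3K27ac in 35.6, 44.0, 60.7 and 83.5% of cases. The median liver H3K4me1 reads also went up over these steps, at 16, 21, 30 and 51, and the 2 were not separated. ES H3K4me1 did not follow, at 19 ± 1.13, 17.4 ± 0.914, 16.1 ± 0.752 and 17.2 ± 1.69% (SD, n = 3). In MEF-specific bins the ES share was 20.2 ± 2.12, 20.8 ± 2.48, 21.7 ± 3.00 and 26.5 ± 4.30% over the same steps. It was higher at the last step than at the first in 3 of 3 ES libraries, at 22.8 against 18.4%, 25.6 against 19.8% and 31.2 against 22.5%. The median thinned MEF reads also went up over these steps, at 16, 22, 30 and 51, and fold and level were not separated. Shared bins were sorted by the reads of the lower library, under 15, 15 to 20, 20 to 30 and at least 30, and their ES share stood at 40.2, 45.6, 52.5 and 60.8%.

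Liver-specific bins were of 3 kinds by the other marks. H3K4me3 of liver or ES cells lay on 15.6% of them, liver H3K27ac without H3K4me3 on 40.4%, and neither on 44.0%, beside 2.47%, 2.42% and 95.1% of all bins. Bins of the last kind were weaker, with a median of 20 liver reads against 37 in each of the others. ES H3K4me1 was called at 27.6 ± 0.811%, 17 ± 1.03% and 14.6 ± 0.845% of the 3 kinds, beside 40.3 ± 4.83%, 25.9 ± 1.33% and 5.82 ± 0.562% of all bins of these kinds. Among shared bins the kinds held 38.4%, 27.2% and 34.4%, and ES H3K4me1 was called at 58.7 ± 7.00%, 47.7 ± 2.26% and 47.4 ± 2.17%. In the shared class the ES share of the last 2 kinds differed by less than the spread between ES libraries. Of the MEF-specific bins 96.5% had neither mark.

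The classes lay at different distances from H3K4me3, which stood in for promoters. To ES H3K4me3, the only such library independent of both samples, 18.8% of liver-specific bins (18.5 to 19.1%), 11.2% of MEF-specific bins (11 to 11.5%) and 42.6% of shared bins (42.2 to 43.1%) lay within 5 kb, against 7.34% of all bins. The median distances were 26, 45 and 9 kb, against 102 kb for all bins. When H3K4me3 of liver was added, 46.2% of liver-specific, 17.4% of MEF-specific and 64.8% of shared bins lay within 5 kb, against 12% of all bins. That second comparison is unequal, since promoters active in MEFs alone are not seen.

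The order in ES cells was the same away from H3K4me3. Over 5 kb from ES H3K4me3 there were 54454 liver-specific, 57939 MEF-specific and 25237 shared bins, and ES H3K4me1 was called at 14 ± 1.09%, 18.6 ± 3.08% and 43.2 ± 3.55% of them (SD, n = 3), against 5.27 ± 0.624% of all such bins. Nothing was called in ES cells at 78.7%, 72.8% and 42.6%, against 91.6%. Over 5 kb from H3K4me3 of both ES cells and liver, the shares with ES H3K4me1 were 12.7 ± 0.946%, 17.9 ± 2.96% and 39.4 ± 2.83%, against 4.63 ± 0.553% of all such bins. Liver H3K27ac was called there at 40.9% of liver-specific bins, 0.681% of MEF-specific bins and 40.7% of shared bins, against 1.5% of all such bins.

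Around the 10218 H3K4me3 regions found in both liver and ES cells, the H3K4me1 libraries differed in shape. In liver the level was 2.89 RPM per kb at the centre and highest, at 3.52, 750 bp away. In MEFs it was 2.39 at the centre and 2.43 at 750 bp. In ES cells the mean was 1.21 at the centre and 2.09 at 1000 bp, with centre values of 0.994, 1.70 and 0.952 in the 3 libraries. The central dip was thus deepest in 2 of the 3 ES libraries and nearly absent in MEFs. MEF H3 was itself raised at these centres, at 1.08 RPM per kb against 0.595 at 10 kb, where liver H3 had 0.481 against 0.556 and ES H3 had 0.355 against 0.540. Around the 3293 H3K4me3 regions of liver with none in ES cells, all 3 kinds of cells peaked at the centre, at 4.51 RPM per kb in liver, 2.51 in MEFs and 1.65 in ES cells.

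Neighbouring bins of a class, with at most 1 other bin between them, were joined into regions. Liver-specific bins formed 33139 regions, MEF-specific bins 37650 and shared bins 24991. Most were a single bin (56%, 61.6% and 62.1%), and the longest were 47, 37 and 43 kb. Regions of at least 5 kb numbered 3142 for liver and 2187 for MEFs and held 30.9% and 19.8% of the bins of their class, and there were 563 and 253 regions of at least 10 kb. Liver-specific H3K4me1 was thus gathered into long stretches more often than MEF-specific H3K4me1 in this pair of libraries.

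**Figure D4:**
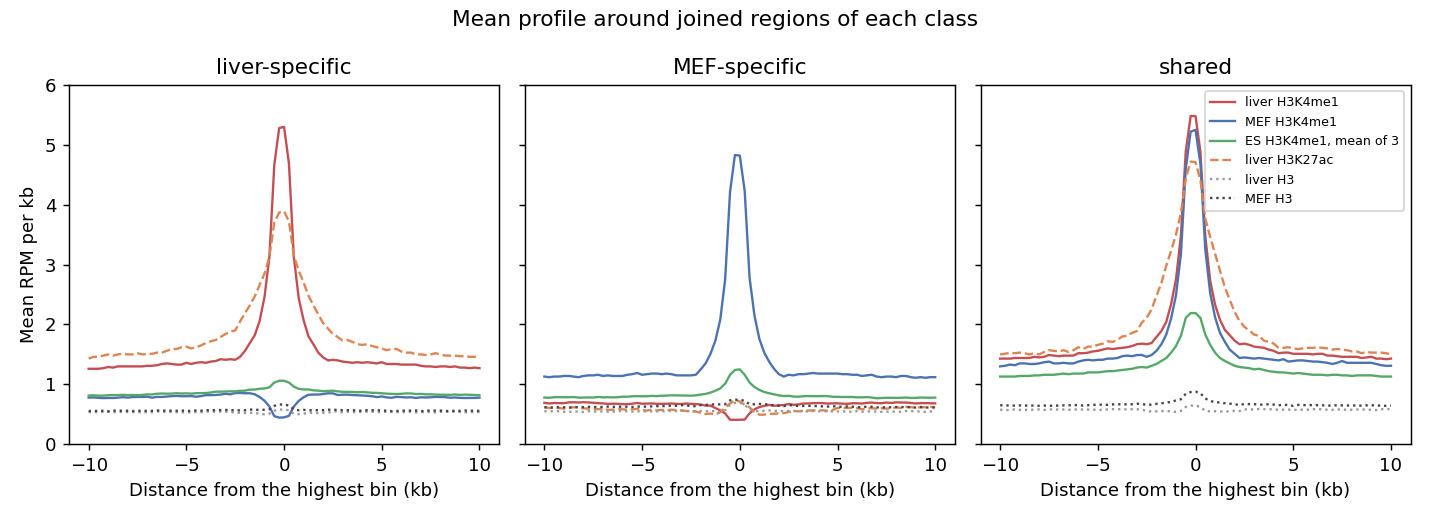
Mean level (RPM per kb) of H3K4me1 in liver, MEFs and ES cells (mean of 3 libraries), of liver H3K27ac and of H3, by distance from the highest bin of each joined region, for 33139 liver-specific, 37649 MEF-specific and 24991 shared regions. The heights of liver and MEF H3K4me1 at the centre follow from the choice of the bins. ES H3K4me1 rises to 1.06, 1.25 and 2.19 at the centres.

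On average the unmarked sample was lower inside the specific regions than beside them. At the centre of liver-specific regions MEF H3K4me1 stood at 0.449 RPM per kb, against 0.778 at 10 kb, and at the centre of MEF-specific regions liver H3K4me1 stood at 0.409, against 0.687 at 10 kb. The rule asks for low values there, so this is a description. Liver H3K27ac, which the rule did not use, stood at 3.89 RPM per kb at the centre of liver-specific regions and 1.45 at 10 kb, at 4.71 and 1.5 for shared regions, and at 0.714 and 0.623 for MEF-specific regions. ES H3K4me1 stood at 1.06 at the centre and 0.815 at 10 kb for liver-specific regions, at 1.25 and 0.780 for MEF-specific regions, and at 2.19 and 1.13 for shared regions.

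By median distance the classes lay nearer to each other along the chromosomes than all bins did. The nearest MEF-specific bin lay a median of 25 kb from a liver-specific bin, and the nearest liver-specific bin 29 kb from a MEF-specific bin, while over all bins these distances were 37 and 47 kb. Shared bins were closer still, at 6 kb from the nearest liver-specific and 10 kb from the nearest MEF-specific bin. At short range the specific classes were not clearly nearer to each other. Within 10 kb of a MEF-specific bin lay 25.2% of liver-specific bins, against 26.6% of all bins. Within 10 kb of a liver-specific bin lay 23.5% of MEF-specific bins, against 23.3% of all bins. All bins here include those of the target class. Over 2339 windows of 1 Mb, the density of liver-specific bins had a Pearson r of 0.389 with that of MEF-specific bins, 0.639 with that of shared bins, and MEF-specific with shared bins 0.595. Windows share read mappability and base composition across libraries, so these are descriptions.

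By chromosome, liver-specific bins ranged between 2.55% of tested bins on chromosome 3 and 4.83% on chromosome 19, and MEF-specific bins between 2.38% on chromosome 14 and 4.07% on chromosome 11. The ratio of liver-specific to MEF-specific bins lay between 0.805 on chromosome 7 and 1.44 on chromosome 19. The ratio of liver to MEF H3 ranged between 0.949 and 1.05 and was 0.957 on chromosome 19. In bins called in neither sample, the ratio of liver to MEF H3K4me1 was lowest on chromosome 15, at 0.842. It was highest on chromosome 19, at 0.997, and its part in the class ratio there was not tested. The window richest in MEF-specific bins was chr7:112000001-113000000, with 21.9% MEF-specific and 1.84% liver-specific bins. A window on chromosome 2, chr2:27000001-28000000, was rich in all classes, with 12.9% liver-specific, 19.3% MEF-specific and 11.2% shared bins. Among shared bins chr14:24000001-25000000 led, with 24.5%.

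The 8 joined regions with the largest difference in RPM were taken from each specific class, and from the shared class the 8 with the highest level in the lower sample. They were chosen for their liver and MEF reads, which are given as a description. Positions are those of the files, which fit the mm8 mouse assembly, and no gene was attached to them.

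Among the liver-specific regions, chr5:125593001-125628000 led, with 2476 liver reads (exact Poisson 95% interval 2379 to 2575) and 249 MEF reads (219 to 282), or 9.67 and 0.972 RPM per kb. Liver H3K27ac was called in 34 of its 35 bins, and ES H3K4me1, in at least 2 of 3 libraries, in 15. On chromosome 13, chr13:41203001-41230000 held 1414 liver reads and 17 MEF reads (9.90 to 27.2), an 83.2-fold difference, and ES H3K4me1 there was 0.357, 0.351 and 0.376 RPM per kb, below the mean over all bins in each library (0.475, 0.475 and 0.477 RPM). The first was thus marked in part in ES cells and the second was not.

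The region chr4:104658001-104701000, 43 kb long, was marked in both liver and ES cells. It held 5.74 RPM per kb in liver and 0.686 in MEFs, beside 3.06, 3.02 and 2.87 in the 3 ES libraries, and 31 of its 43 bins were called in at least 2 ES libraries. In the region chr17:56887001-56924000, with 7.26 RPM per kb in liver and 0.325 in MEFs, nothing was called in ES cells in 33 of 37 bins. The region chr8:120590001-120635000 held 1659 liver reads and 42 MEF reads, and nothing was called in ES cells in 40 of its 45 bins. Over the 8 liver-specific regions, mean ES H3K4me1 ranged between 0.361 and 2.98 RPM per kb with a median of 0.685, and no bin of any was called for ES H3K4me3. H3K4me3 of liver was called in 3 to 15 bins of each of the 8. Over all bins the calls were 1.21% for ES H3K4me3 and 2.30% for liver H3K4me3. The ES H3K4me3 library held 2.32 M distinct reads, with 70% of reads repeated, and the liver one 7.89 M. The part of depth in this contrast was not tested. Liver H3K4me3 reached 8.41 RPM per kb in chr17:56887001-56924000. Liver H3K27ac ranged between 3.96 and 10.3 RPM per kb. The ratio of liver to MEF H3 lay between 0.714 and 1.22.

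Among the MEF-specific regions, chr2:172879001-172916000 led, with 254 liver reads (224 to 287) and 3621 MEF reads (3504 to 3741), or 0.938 and 13.4 RPM per kb. ES H3K4me1 there was 4.45, 6.06 and 5.46 RPM per kb, and 35 of 37 bins were called in at least 2 ES libraries, so that this region was marked in MEFs and ES cells. Its liver level was low beside both, yet above the liver mean over all bins (0.477 RPM). On the same chromosome chr2:27733001-27762000 held 0.994 RPM per kb in liver and 11 in MEFs, and ES H3K4me1 was 0.250, 0.294 and 0.206 RPM per kb, with 0 of 29 bins called for H3K4me1 in any ES library. The 2 regions were of like strength in MEFs and opposite in ES cells.

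Marking in ES cells also varied among the other MEF-specific regions. The region chr10:60187001-60210000 held 0.844 RPM per kb in liver and 12.7 in MEFs, with 3.86, 4.17 and 4.94 in ES cells. The region chr6:91180001-91211000 held 0.317 and 7.14, with 0.347, 0.429 and 0.546 in ES cells. Mean ES H3K4me1 over the 8 ranged between 0.250 and 5.32 RPM per kb, with a median of 1.95. Liver H3K27ac was called in 0 bins of 7 of the 8, and in 5 of the 23 bins of chr7:100781001-100804000. The ratio of liver to MEF H3 was below 1 in all 8, between 0.491 and 0.705, while H3K4me1 was 10.2 to 41.3-fold higher in MEFs. MEF H3 levels of 0.838 to 1.14 RPM per kb were thus also raised in these regions, and their part in the difference was not tested.

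Among the shared regions, chr14:24295001-24335000 held 3767 liver reads and 3376 MEF reads, or 12.9 and 11.5 RPM per kb, and its neighbour chr14:24337001-24370000 held 9.84 and 10.1. ES H3K4me1 was low in both, at 0.902, 1.10 and 1.46 RPM per kb in the first and 0.853, 0.884 and 1.05 in the second. In contrast chr7:28626001-28667000, with 8.24 RPM per kb in liver and 10.0 in MEFs, held 5.20, 5.48 and 5.05 in ES cells, and 40 of its 41 bins were called in at least 2 ES libraries. The region chr11:117122001-117144000 held 11.7 RPM per kb in liver and 15.6 in MEFs, with 5.03, 7.04 and 6.81 in ES cells. Mean ES H3K4me1 over the 8 shared regions ranged between 0.929 and 6.29 RPM per kb, with a median of 3.02. The ratio of liver to MEF H3 lay between 0.449 and 0.913.

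**Figure D5:**
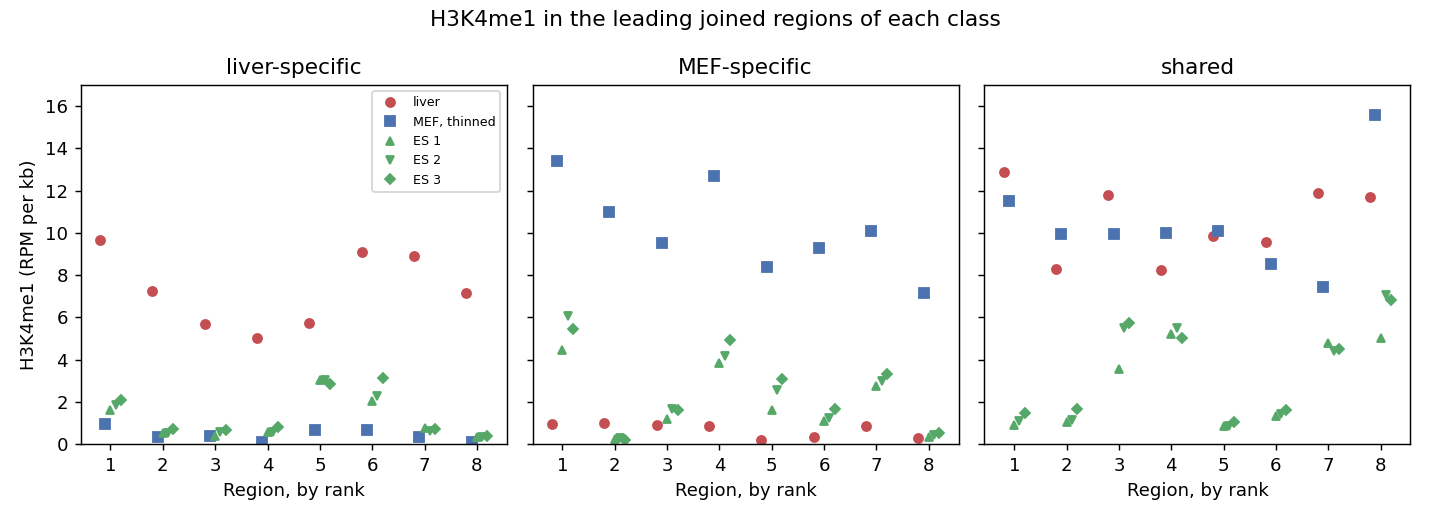
H3K4me1 (RPM per kb) in liver, in MEFs thinned to the liver depth and in each of the 3 ES libraries, for the 8 leading joined regions of each class, numbered by rank. Liver and MEF values follow from the choice of the regions. ES values spread between 0.206 and 6.06 in MEF-specific regions, and between 0.351 and 3.15 in liver-specific ones.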

How the data were processed

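The values the authors deposited are signed positions of aligned reads, 1 line per read, with no count or other normalised signal per feature, and duplicates were not removed. Neither aligner nor build is given in the sources used here. Positions stay within mm8 lengths on 19 of 19 autosomes and exceed mm9 on 5. Per the labels' protocols, chromatin was sonicated, amplified by PCR and cut from a gel. Reads were counted once per position and strand, moved 100 bp toward the fragment centre and summed in 1 kb bins with at least 1 H3 read in liver and MEFs together (2078699 of 2462446 bins). Bins were called against the larger of the genome mean and depth-scaled H3 over 5000 bp (Poisson, Benjamini-Hochberg adjusted at 0.01 as a calling threshold, at least 3-fold). ES, iPS and NPC histone marks were set against ES H3, and p300 and Rfx1 against whole cell extract of ES cells. Classes used a limit of 4-fold and a floor of 3 reads. The MEF library was thinned with a fixed seed. Intervals are exact 95% binomial (Clopper-Pearson) or Poisson and cover counting error only, since reads carry no molecular identifiers. No test between single libraries was made. Named regions are, per class, the 8 with the largest summed RPM difference, or, for shared, the largest smaller sum; the longest of each class is among them. The members, lists and rules were chosen with earlier results of these data known. Python 3.11.15, numpy 2.4.6, scipy 1.17.1 and matplotlib 3.10.9 were used. Alternatives covered depth, duplicates, thresholds, background, scaling, bin size and position, read shift, filters and the ES libraries.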

Additional observations from a re-analysis of the deposited data

How the results depend on the processing

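Shared bins stood above MEF-specific bins, and those above liver-specific bins, in the share with ES H3K4me1 in all 24 settings run, the main one included. That order is one of the classes. In the main setting, bins called in 1 sample only and under 4-fold had means of 34.3% for liver and 32.6% for MEFs. The share of liver-specific bins with ES H3K4me1 (17.6%) was 20.8% with specific bins set at 2-fold, 16.7% at 8-fold, 19.6% with bins called at 2-fold, 9.31% at 5-fold, 21.0% against the genome mean alone, 18.3% with no H3 filter, 16.5% with ES libraries thinned and 16% in 2 kb bins; leaving out each ES library gave 17.4 to 18.0%. That of MEF-specific bins (21.9%) was 15.3% with bins called at 5-fold, and 20.4 to 23.1% with each ES library left out. That of shared bins (51.8%) was 55.5% with bins called at 2-fold, 34.9% at 5-fold, 56.9% against the genome mean and 45.2% in 500 bp bins, and 50.9 to 53.6% with each ES library left out. Over 5 kb from H3K4me3 of ES cells, and of ES cells and liver, both chosen after seeing the data, the shares were 14 and 12.7%, 18.6 and 17.9%, and 43.2 and 39.4%.

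The liver-specific extent (67.1 Mb) was 30.4 Mb at 8-fold, 42.0 Mb in 500 bp bins and 36.1 Mb over 5 kb from H3K4me3 of ES cells and liver. The MEF-specific extent (65.3 Mb) was 27.8 Mb at 8-fold, 36.4 Mb with bins called at 5-fold and 42.6 Mb in 500 bp bins. The shared extent (44.0 Mb) was 18.3 Mb with bins called at 5-fold, and 25.2 and 15.5 Mb over 5 kb from H3K4me3 of ES cells and of both. With the MEF depth multiplied by 1.1, which levels the bins called in neither, the specific extents were 69.1 Mb in liver and 58.2 Mb in MEFs, and with 0.964, which levels the shared bins, 63.5 and 65.7 Mb, so which of the 2 is longer depends on the scaling. The share of liver-called bins called in MEFs (31.5%) was 32.0% at full MEF depth, 34.0% with bins called at 2-fold, 20.5% at 5-fold, 39.4% against the genome mean, 31.1% with no H3 filter, 31.2% with all reads kept, 30.5% in 2 kb and 29.9% in 500 bp bins. That of MEF-called bins called in liver (34.1%) was 35.4% at 2-fold, 27.4% at 5-fold, 37.4% against the genome mean, 31.4% with whole cell extract as the liver background, 36.0% in 2 kb and 30.8% in 500 bp bins. Liver H3K27ac ranged over all alternatives between 40.9 and 72% of liver-specific bins, 0.681 and 3.73% of MEF-specific bins and 40.7 and 61.4% of shared bins. The cause of these moves was not tested. No paired analysis was possible because each sample is 1 library and no test between groups was made. Depth limits bins of few reads. An Rfx1 library of 0.694 M, an iPS library of 2.29 M and an ES H3K4me3 library of 2.32 M distinct reads leave weak bins uncalled.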

Other observations

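A small group of MEF-specific bins lay on H3K4me3 of other cells. The 1225 MEF-specific bins on ES H3K4me3 averaged 0.624 RPM of H3K4me1 in liver and 5.08 RPM in MEFs, and liver H3K27ac was called at 60.1% of them (57.3 to 62.8%) and liver H3K4me3 at 63.7% (60.9 to 66.4%), with a mean of 11.3 RPM of liver H3K27ac. Over all 25135 bins on ES H3K4me3 the liver marks were called at 68.9% (68.3 to 69.5%) and 85.7% (85.3 to 86.1%), with a mean of 8.60 RPM of liver H3K27ac, and over the shared ones at 64.6% and 91.0%. The mirror group, the 2542 liver-specific bins on ES H3K4me3, averaged 4.51 RPM in liver and 0.707 RPM in MEFs, and liver H3K4me3 was called at 96.8% of them and H3K27ac at 78.4%.

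Liver-specific bins with nothing called in ES cells were acetylated in liver nearly as often as those with ES H3K4me1 and no H3K27ac, at 51.4% (50.9 to 51.8%) and 53.0% (51.6 to 54.3%), and those with both ES marks at 65.5% (64.0 to 67.1%). Over all bins of these ES states the shares were 2.21%, 12% and 20.7%.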
